A study of Mus musculus with 10 samples.

Results

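The genes described here are 9 regulators of the liver's handling of foreign chemicals and of hepatocyte identity, followed in whole-liver RNA. They are the drug-sensing receptors Ahr, Nr1i2 (PXR) and Nr1i3 (CAR), the receptor partners Arnt and Rxra, the electron donor Por, and the hepatocyte transcription factors Hnf4a, Cebpa and Foxa2. The list of symbols was given by name and function and was drawn up with earlier results of these data known; all 9 were found among the 55385 gene rows and passed the filter on low counts. The study measured frozen, homogenised mouse liver in 5 libraries labelled Alk1-HEC-KO and 5 labelled Control, whose genotype entry reads Ctrl. Alk1 is another name of Acvrl1, which encodes a BMP-type receptor of endothelial cells. The labels do not spell out HEC, and they give no Cre driver, sex, age or treatment for either group. They do not tie libraries to animals, so the spread behind each p-value is that between libraries, which may be technical.

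In the liver, AHR waits in the cytoplasm with chaperones, binds flat aromatic ligands, moves to the nucleus and pairs with ARNT to switch on genes such as Cyp1a1 and Cyp1a2. PXR and CAR bind DNA as partners of RXRA and switch on Cyp3a, Cyp2b and Cyp2c genes together with conjugating enzymes and transporters, and POR passes electrons to the cytochromes P450 that these genes encode. HNF4A, CEBPA and FOXA2 keep the hepatocyte programme running, and HNF4A is known to act on the Nr1i2 and Nr1i3 genes.

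None of the 9 genes passed the test between the groups. The lowest fold changes were those of Ahr, at 0.54 times the control level, and Nr1i3, at 0.64 times. The other 7 had fitted levels between 0.87 and 1.07 times those of control libraries. Among targets of these receptors, Cyp1a2, a liver P450 under AHR control, fell to 0.32 times the control level and passed the test. That call held in only 11 of 24 alternative choices of libraries, filter, scaling, model or test. The CAR and PXR target Cyp2c29, at 0.49 times, missed the threshold.

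Start regions are shown for 4 genes. Nr1i3, Cyp1a2 and Cyp2c29 are among the genes given above with lower fold changes, and only Cyp1a2 passed the test. Por was chosen with its matches in view, as the one factor whose window held several copies of the AHR-ARNT core. Each line gives 300 bases from RefSeq (build GRCm38.p6), 5′ to 3′ on the gene's strand, with 250 bases before and 50 after the annotated start. Capitals mark GCGTG, the core bound by AHR-ARNT, or AGGTCA, the half-site of many nuclear receptors, on either strand, so that GCGTG on the other strand reads CACGC. The windows are chr1:171213720-171214019 (plus strand) for Nr1i3, chr5:135688895-135689194 (plus) for Por, chr9:57683606-57683905 (minus) for Cyp1a2 and chr19:39286835-39287134 (plus) for Cyp2c29.
Nr1i3: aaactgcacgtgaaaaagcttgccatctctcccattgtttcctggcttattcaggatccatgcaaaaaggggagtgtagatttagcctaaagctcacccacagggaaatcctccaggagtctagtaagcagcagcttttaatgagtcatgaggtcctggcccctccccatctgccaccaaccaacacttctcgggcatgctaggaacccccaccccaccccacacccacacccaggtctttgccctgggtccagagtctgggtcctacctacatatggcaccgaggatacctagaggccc
Por: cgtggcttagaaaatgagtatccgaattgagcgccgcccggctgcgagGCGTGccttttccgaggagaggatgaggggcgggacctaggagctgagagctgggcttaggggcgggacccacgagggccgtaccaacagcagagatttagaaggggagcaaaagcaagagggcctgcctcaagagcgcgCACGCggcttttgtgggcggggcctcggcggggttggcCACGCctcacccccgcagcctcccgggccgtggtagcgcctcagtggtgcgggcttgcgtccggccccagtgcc
Cyp1a2: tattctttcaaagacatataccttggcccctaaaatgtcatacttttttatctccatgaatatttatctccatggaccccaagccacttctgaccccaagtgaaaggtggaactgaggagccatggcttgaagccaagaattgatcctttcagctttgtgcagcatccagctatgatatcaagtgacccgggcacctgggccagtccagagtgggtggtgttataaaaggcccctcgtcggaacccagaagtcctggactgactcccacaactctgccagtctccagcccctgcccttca
Cyp2c29: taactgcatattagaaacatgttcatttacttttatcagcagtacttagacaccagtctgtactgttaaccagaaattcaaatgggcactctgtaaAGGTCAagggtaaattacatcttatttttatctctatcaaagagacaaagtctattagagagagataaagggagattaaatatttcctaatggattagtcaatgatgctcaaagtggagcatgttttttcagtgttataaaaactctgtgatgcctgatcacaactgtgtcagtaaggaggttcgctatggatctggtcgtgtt
The Por window held 3 matches of GCGTG and the Cyp2c29 window 1 match of AGGTCA, while the Nr1i3 and Cyp1a2 windows held neither. Of 32851 RefSeq windows of this length, 10639 (32.4%) held GCGTG and 5340 (16.3%) held AGGTCA. RefSeq windows were matched for 8 of the 9 genes, all but Ahr. Arnt had 1 GCGTG match, each of the 3 Foxa2 windows had 1, 1 of the 2 Rxra windows had 2 AGGTCA matches, and the windows of Nr1i2, Hnf4a and Cebpa had no match of either. Among the target genes, the windows of Cyp1a1 and Tiparp each held 1 GCGTG and that of Cyp3a11 held 1 AGGTCA. A match is a string of letters and not a measured binding site. Bases outside the windows were not searched, so a window without a match gives no statement about control by these receptors.

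Each library held 20.91 to 21.56 M (mega) estimated counts, and 12872 genes were tested in edgeR by quasi-likelihood, with Benjamini-Hochberg adjustment over all of them. A gene was called at an adjusted p under 0.05, which 46 genes (0.357%) reached, 24 higher (0.186%) and 22 lower (0.171%) in libraries labelled Alk1-HEC-KO. Acvrl1 went against the label: it averaged 1.36 ± 0.331 TPM in libraries labelled Alk1-HEC-KO and 0.669 ± 0.331 TPM in control libraries (SD, n = 5 each; log2 fold change 0.99, adjusted p = 0.34 in edgeR), so that every direction below is that of libraries carrying the label. TPM is transcript abundance per length, scaled to the same sum in each library, and is used for levels, while fold changes come from the scaled counts. All 18 secreted protein and enzyme genes of hepatocytes in the list were tested, Alb averaged 36370 TPM in libraries labelled Alk1-HEC-KO and 36047 TPM in control libraries, and Xist was at most 0.15 TPM in every library. The libraries labelled Alk1-HEC-KO with numbers 4 and 5 and control library 4 had Saa1 above 1000 TPM, and control libraries 1 and 2 had Fos above 20 TPM. Names in the deposited set fall into 3 runs of consecutive numbers, and the third of them holds 3 libraries labelled Alk1-HEC-KO and no control. What a run stands for is not given in the labels.

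The 9 genes spanned a wide range of levels. Over all 10 libraries Cebpa averaged 215 TPM, Por 186, Hnf4a 117, Rxra 81.4, Nr1i3 38.5, Nr1i2 23.4, Foxa2 9.73, Arnt 4.50 and Ahr 3.51 TPM. Cebpa stood above 96.4% of tested genes in mean TPM, and Ahr above 42.4%. Neighbours in this order had overlapping ranges over libraries, yet within a library the order was mostly kept. Cebpa was above Por in 7 of 10 libraries, Por above Hnf4a in 9, and Arnt above Ahr in 8, made up of 5 of 5 libraries labelled Alk1-HEC-KO and 3 of 5 control libraries. Each other neighbour pair kept its order in 10 of 10. The range over libraries was narrowest for Cebpa, whose highest value was 1.48 times its lowest, and widest for Ahr, at 6.07 times.

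**Figure D1:**
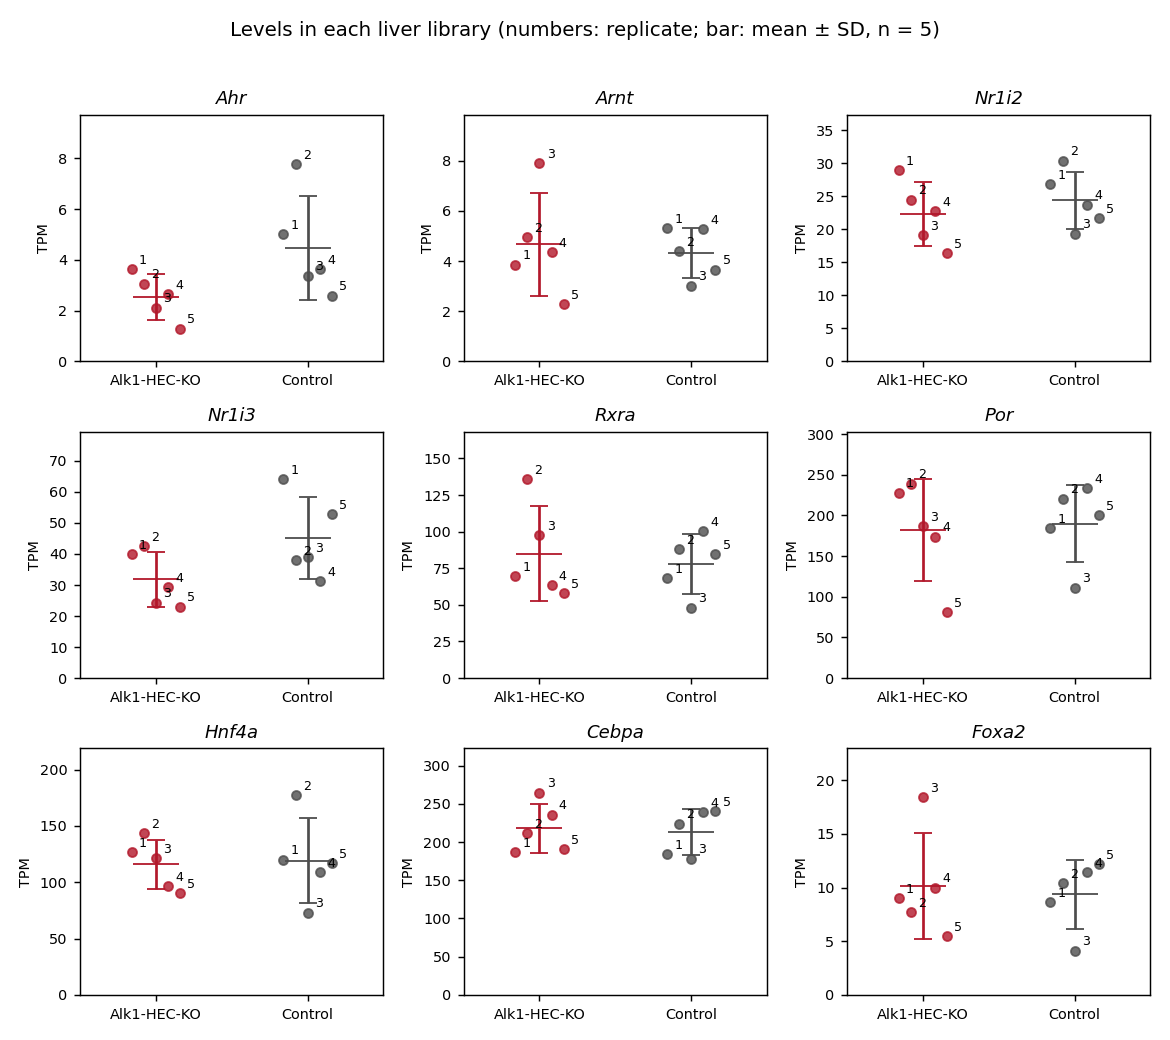
TPM of each of the 9 genes in each library, with libraries labelled Alk1-HEC-KO at left and control libraries at right in every panel; points are libraries with their replicate numbers, bars are means ± SD (n = 5 each), and each vertical axis starts at 0. All 9 panels show overlapping groups; Ahr and Nr1i3 have lower means in libraries labelled Alk1-HEC-KO, and library 5 of that group is its lowest for 8 of the 9 genes.

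Ahr, the aromatic hydrocarbon receptor (ENSMUSG00000019256.17, chromosome 12, 35497974 to 35535038, minus strand, GRCm38), was the scarcest of the 9. In the order of replicates 1 to 5, Ahr was at 3.64, 3.06, 2.11, 2.64 and 1.28 TPM in the libraries labelled Alk1-HEC-KO and at 5.02, 7.77, 3.37, 3.63 and 2.59 TPM in control libraries. Control libraries 1 and 2 stood above every library labelled Alk1-HEC-KO, and the other 3 control libraries lay among them. The means were 2.55 ± 0.901 TPM in libraries labelled Alk1-HEC-KO and 4.48 ± 2.04 TPM in control libraries (SD, n = 5 each), and the difference in TPM had p = 0.079 in an exact two-sided permutation test, whose smallest possible p is 0.0079. The log2 fold change was -0.89 (SE 0.26, 95% interval -1.46 to -0.32), with an adjusted p of 0.29 in edgeR. It rested on 148 to 743 estimated counts a library. In bulk liver, fewer cells of a type and less RNA per cell cannot be told apart.

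The difference in Ahr had the same sign in the 2 runs that hold both groups, with log2 CPM lower by 0.82 in the first run and by 0.84 in the second, each from 1 library labelled Alk1-HEC-KO set against 2 and 3 control libraries. Without the 2 control libraries that had Fos above 20 TPM, which are the 2 with the most Ahr, the log2 fold change was -0.51 (adjusted p = 0.99 in edgeR, in a comparison added after the data were seen). The immediate early and heat shock list summed to 133 to 311 TPM in libraries labelled Alk1-HEC-KO and to 190 to 622 TPM in control libraries, with 601 and 622 TPM in control libraries 1 and 2. None of its 13 tested genes was called by edgeR or limma-voom (5 at an unadjusted p under 0.05), 1 was called by DESeq2, and 12 had negative fold changes (11 when scaled by library totals alone or upper quartile); Zfp36 had -0.63 (adjusted p = 0.58) and Egr1 -1.58 (adjusted p = 0.43). Fos averaged 1.89 TPM in libraries labelled Alk1-HEC-KO and 12.2 TPM in control libraries (log2 fold change -2.89, adjusted p = 0.33), and the part of this list in the Ahr values was not tested.

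Arnt, the nuclear partner of AHR and of HIF proteins (ENSMUSG00000015522.18, chromosome 3, 95434388 to 95497240, plus strand), had a different profile. Arnt was at 3.85, 4.95, 7.92, 4.35 and 2.29 TPM in the libraries labelled Alk1-HEC-KO and at 5.32, 4.39, 3.01, 5.27 and 3.66 TPM in control libraries. Both the highest and the lowest value came from libraries labelled Alk1-HEC-KO, numbers 3 and 5, and the groups overlapped fully. Arnt had a log2 fold change of 0.10 (SE 0.20, 95% interval -0.32 to 0.52; adjusted p = 0.92 in edgeR), and without library 3 of that group it was -0.12. The ratio of Ahr to Arnt in TPM was 0.945, 0.618, 0.267, 0.607 and 0.560 in libraries labelled Alk1-HEC-KO and 0.944, 1.77, 1.12, 0.688 and 0.707 in control libraries. Library 1 of the labelled group reached the control range, and the other 4 lay below it.

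The chaperones and alternative partners of the pair gave no called gene in edgeR, DESeq2 or limma-voom, and 0 at an unadjusted p under 0.05. Of 8 listed, 6 were tested and 5 had negative fold changes, with a median log2 fold change of -0.24 against 0.0022 over all tested genes. Hsp90ab1, the abundant cytosolic HSP90 that holds AHR, averaged 251 TPM in libraries labelled Alk1-HEC-KO and 281 TPM in control libraries (log2 fold change -0.24, adjusted p = 0.75 in edgeR). Nfe2l2, the oxidative stress factor NRF2, had a log2 fold change of -0.25 (adjusted p = 0.69) and Hsp90aa1, the inducible HSP90, one of -0.32 (adjusted p = 0.74) in the same test.

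Of 9 listed AHR targets 6 were tested and 1 was called, lower, against 0.357% of all tested genes called. At an unadjusted p under 0.05 in edgeR stood 3, all lower, against 3.42% of all tested genes lower. All 6 had negative fold changes under each of the 4 scalings tried, with a median log2 fold change of -0.43, against 0.0022 over all tested genes. Cyp1a2 (ENSMUSG00000032310.4), which metabolises caffeine and aromatic amines, was at 213, 99.7, 194, 157 and 54.7 TPM in the libraries labelled Alk1-HEC-KO and at 441, 492, 423, 287 and 436 TPM in control libraries. Every library labelled Alk1-HEC-KO was below every control library, as for 1.68% of all tested genes in log2 CPM. Cyp1a2 fell by 1.65 on the log2 scale (SE 0.30, 95% interval -2.30 to -1.0, adjusted p = 0.034 in edgeR, exact permutation p of TPM = 0.0079). The call was lost with 7 of the 10 libraries left out in turn (numbers 2, 3 and 4 labelled Alk1-HEC-KO and control numbers 1, 2, 3 and 5), where the adjusted p ran from 0.061 to 0.10; over all 10 such fits the log2 fold change stayed between -1.85 and -1.48. It was also lost with the file-name run as covariate (-1.21, adjusted p = 0.86) and without the third run (-1.19, adjusted p = 0.23), although within the first and second run log2 CPM was lower by 1.11 and by 1.24; without the filter on low counts, without the libraries with high Saa1 and without those with high Fos the adjusted p was 0.10, 0.057 and 0.22.

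The other 5 tested AHR targets did not pass, and their groups overlapped in TPM. Nqo1, a quinone reductase, averaged 2.63 TPM in libraries labelled Alk1-HEC-KO and 3.38 TPM in control libraries (log2 fold change -0.43, adjusted p = 0.52 in edgeR). Tiparp, the ADP-ribosyltransferase that feeds back on AHR, averaged 1.10 TPM in libraries labelled Alk1-HEC-KO and 1.39 TPM in control libraries (log2 fold change -0.43, adjusted p = 0.70). Ugt1a6a and Ugt1a6b, glucuronosyltransferases for phenols, had log2 fold changes of -0.32 (adjusted p = 0.70) and -0.30 (adjusted p = 0.69). They share most of their transcript with each other and with Ugt1a1, so the split of reads between the 3 is an estimate. Cyp1a1, the classical inducible AHR target, lies outside the rule for named genes and was chosen with its values in view. It was scarce, at 0.161 to 0.263 TPM in libraries labelled Alk1-HEC-KO and 0.206 to 0.998 TPM in control libraries (log2 fold change -1.10, adjusted p = 0.53).

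**Figure D2:**
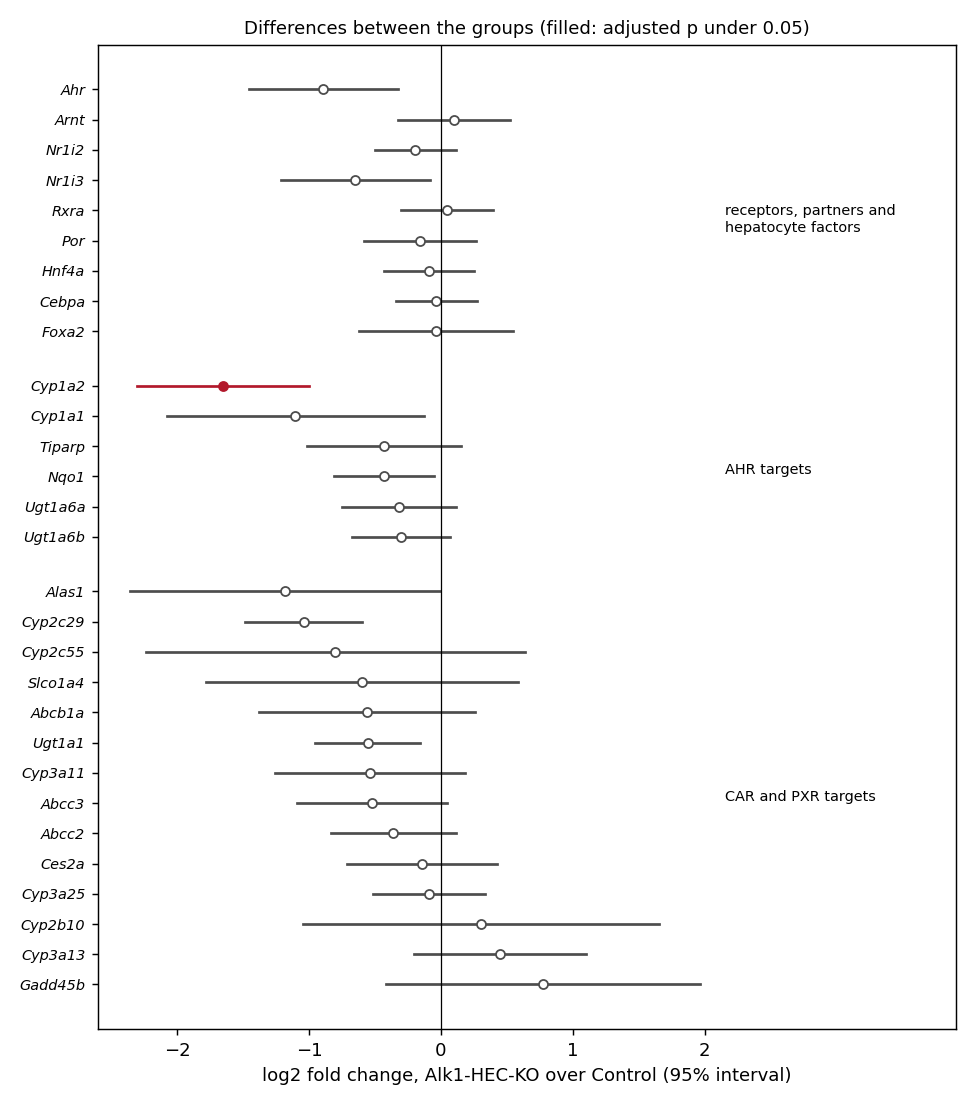
Log2 fold change of Alk1-HEC-KO over Control with its 95% interval from edgeR for the 9 genes, the 6 tested AHR targets and the 14 CAR and PXR targets (5 libraries in each group). The 1 filled point is Cyp1a2 at -1.65; of the 9 genes, Ahr and Nr1i3 have intervals that lie below 0, and the intervals of the other 7 include 0.

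Nr1i3, the constitutive androstane receptor (ENSMUSG00000005677.14, chromosome 1, 171213970 to 171220701, plus strand), had the second lowest fold change. Nr1i3 was at 39.9, 42.5, 24.3, 29.3 and 23.1 TPM in the libraries labelled Alk1-HEC-KO and at 64.1, 38.1, 39.0, 31.3 and 52.9 TPM in control libraries. Control libraries 1 and 5 stood above every library labelled Alk1-HEC-KO, libraries 3, 4 and 5 of that group stood below every control library, and the rest overlapped. The means were 31.8 ± 8.94 TPM in libraries labelled Alk1-HEC-KO and 45.1 ± 13.2 TPM in control libraries (SD, n = 5 each; exact permutation p = 0.10). The log2 fold change was -0.65 (SE 0.26, 95% interval -1.22 to -0.09, adjusted p = 0.52 in edgeR). Without control library 1, the highest, it was -0.42 (adjusted p = 0.84), and within the runs that hold both groups log2 CPM was lower by 0.26 and by 1.03.

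Nr1i2, the pregnane X receptor (ENSMUSG00000022809.4, chromosome 16, 38248323 to 38294824, minus strand), varied less. Nr1i2 was at 29.0, 24.5, 19.1, 22.8 and 16.4 TPM in the libraries labelled Alk1-HEC-KO and at 26.8, 30.4, 19.3, 23.8 and 21.7 TPM in control libraries. The groups overlapped apart from libraries 3 and 5 of the labelled group, which were below the lowest control, library 3 only just. For Nr1i2 the log2 fold change was -0.19 (SE 0.14, 95% interval -0.50 to 0.11, adjusted p = 0.75 in edgeR), an interval that leaves out a loss of 1 log2 unit. Nr1i3 exceeded Nr1i2 in all 10 libraries. Their TPM ratio was 1.38, 1.73, 1.27, 1.29 and 1.40 in libraries labelled Alk1-HEC-KO and 2.39, 1.25, 2.02, 1.32 and 2.44 in control libraries, so that 3 control libraries lay above the whole labelled group and 2 lay within or just below it.

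Rxra, the shared partner of CAR, PXR and many other nuclear receptors (ENSMUSG00000015846.15, chromosome 2, 27676440 to 27762957, plus strand), was at 69.4, 136, 97.7, 63.5 and 57.9 TPM in the libraries labelled Alk1-HEC-KO and at 68.3, 88.2, 48.2, 100 and 84.6 TPM in control libraries. Library 2 of the labelled group was the highest and control library 3 the lowest, with the rest interleaved. For Rxra the log2 fold change was 0.05 (SE 0.16, 95% interval -0.30 to 0.40, adjusted p = 0.95 in edgeR).

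Of 14 CAR and PXR targets, all tested, none was called by edgeR (3 at an unadjusted p under 0.05, all lower; 1 called by DESeq2 and 0 by limma-voom). Fold changes were negative for 11 and positive for 3 under each scaling, with a median log2 fold change of -0.53. Cyp2c29 (ENSMUSG00000003053.17), a P450 of fatty acid epoxidation, was at 365, 367, 414, 296 and 128 TPM in the libraries labelled Alk1-HEC-KO and at 674, 768, 415, 597 and 548 TPM in control libraries. The groups touched without overlap, at 414 and 415 TPM. For Cyp2c29 the log2 fold change was -1.04 (SE 0.21, 95% interval -1.48 to -0.60, adjusted p = 0.055 in edgeR). In 4 of 24 alternatives Cyp2c29 passed at an adjusted p under 0.05. These were DESeq2 (0.0002), edgeR without the filter on low counts (0.00012), and without library 1 (0.044) or library 5 (0.025) of the labelled group. The adjusted p in edgeR was 0.16 with library totals alone, 0.35 without the libraries with high Fos and 0.42 without the third run. With limma on log2(TPM + 1) the adjusted p was 0.31. The file-name run as covariate gave a log2 fold change of -0.76, which did not pass.

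The other 13 CAR and PXR targets had adjusted p of 0.37 or more. Ugt1a1, which conjugates bilirubin, averaged 163 TPM in libraries labelled Alk1-HEC-KO and 225 TPM in control libraries (log2 fold change -0.56, adjusted p = 0.37 in edgeR). Alas1, the first enzyme of haem synthesis, averaged 276 TPM in libraries labelled Alk1-HEC-KO and 550 TPM in control libraries (log2 fold change -1.18, adjusted p = 0.59), with single libraries between 37.7 and 917 TPM. Cyp3a11, the main mouse counterpart of human CYP3A4, averaged 1789 TPM in libraries labelled Alk1-HEC-KO and 2499 TPM in control libraries (log2 fold change -0.54, adjusted p = 0.70). Among the transporters, the log2 fold changes were -0.36 for the bile canalicular pump Abcc2, -0.52 for the basolateral pump Abcc3 and -0.60 for the uptake carrier Slco1a4. The P450 genes Cyp2c55 and Cyp3a25 had log2 fold changes of -0.80 and -0.09, the carboxylesterase Ces2a had -0.14, and the 2 positive ones at 1 TPM or more were the P450 Cyp3a13 at 0.45 and the stress gene Gadd45b at 0.77. Cyp2b10 and Abcb1a were below 1 TPM in both group means and lie outside the rule for named genes. Their log2 fold changes were 0.30 (adjusted p = 0.92 in edgeR) and -0.56 (adjusted p = 0.73). Members of the Cyp2c and Cyp3a families are similar in sequence, so their estimated counts carry an uncertainty of read assignment.

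Cyp1a2, Cyp2c29 and the CAR gene are known as genes expressed towards the central vein, and a list of 14 other pericentral genes was set beside them. Of these 14, 9 were called, all lower, against 0.171% of all tested genes called lower. All 14 had negative fold changes under each scaling, with a median log2 fold change of -1.73 against 0.0022 over all tested genes. Glul, the glutamine synthetase of the innermost cell layer, averaged 32.5 TPM in libraries labelled Alk1-HEC-KO and 283 TPM in control libraries (log2 fold change -3.24, adjusted p = 2.9e-06 in edgeR). The other called genes were the transporters Rhbg (-3.48), Slc13a3 (-5.01) and Slc1a2 (-4.84), the transcription factor Tbx3 (-1.60), Lect2 (-1.39), Gulo (-1.25), and the WNT target genes Lgr5 (-2.70) and Axin2 (-1.90), in log2 fold change. Cyp2e1, the most abundant, had -1.06 (adjusted p = 0.17), and Oat and Rnf43 had -1.87 (adjusted p = 0.060) and -0.75 (adjusted p = 0.094). The list summed to 990 to 3324 TPM in libraries labelled Alk1-HEC-KO and to 3706 to 4697 TPM in control libraries, and its part in the values of Ahr, Nr1i3 and their targets was not tested. The count was 2 with the file-name run as covariate, 4 without the 2 libraries with high Fos and 5 without the third run.

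Por, cytochrome P450 oxidoreductase (ENSMUSG00000005514.14, chromosome 5, 135670033 to 135735326, plus strand), had group values that overlapped over most of their range. Por was at 228, 239, 187, 174 and 80.7 TPM in the libraries labelled Alk1-HEC-KO and at 184, 221, 111, 234 and 201 TPM in control libraries. Library 5 of the labelled group and control library 3 were low, and the other 8 lay between 174 and 239 TPM. For Por the log2 fold change was -0.16 (SE 0.20, 95% interval -0.58 to 0.27, adjusted p = 0.86 in edgeR). The list of POR partners and clients gave no call among 10 tested genes in edgeR or DESeq2 (3 at an unadjusted p under 0.05), 7 with negative fold changes under each scaling (median -0.24). Cyb5a, the cytochrome b5 that hands a second electron to P450 enzymes, averaged 970 TPM in libraries labelled Alk1-HEC-KO and 1144 TPM in control libraries (log2 fold change -0.33, adjusted p = 0.65). Hmox1, the haem oxygenase that draws its electrons from POR, had 0.63 (adjusted p = 0.41), and Cyp51, a sterol demethylase, and Cyb5b, the outer mitochondrial cytochrome b5, had -0.43 and -0.48 (adjusted p = 0.59 for each).

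Hnf4a, the nuclear receptor that sets the adult hepatocyte programme (ENSMUSG00000017950.16, chromosome 2, 163506808 to 163572910, plus strand), was at 127, 144, 121, 96.6 and 90.5 TPM in the libraries labelled Alk1-HEC-KO and at 120, 177, 72.8, 109 and 117 TPM in control libraries. Both the highest and the lowest value were controls, and the libraries labelled Alk1-HEC-KO lay between them. For Hnf4a the log2 fold change was -0.09 (SE 0.16, 95% interval -0.43 to 0.25, adjusted p = 0.90 in edgeR).

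Cebpa, a leucine zipper factor of mature hepatocytes (ENSMUSG00000034957.10, chromosome 7, 35119293 to 35121928, plus strand), was at 187, 211, 264, 236 and 190 TPM in the libraries labelled Alk1-HEC-KO and at 184, 224, 178, 239 and 240 TPM in control libraries. Its libraries were the closest together of the 9 genes, and the groups overlapped over nearly their whole range. The log2 fold change was -0.04 (SE 0.14, 95% interval -0.34 to 0.27, adjusted p = 0.96 in edgeR), and its sign turned when counts were scaled by library totals alone or by upper quartile (0.03 and 0.02).

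Foxa2, a pioneer factor that opens liver enhancers (ENSMUSG00000037025.11, chromosome 2, 148042877 to 148046969, minus strand), was at 9.0, 7.70, 18.4, 9.97 and 5.45 TPM in the libraries labelled Alk1-HEC-KO and at 8.65, 10.4, 4.13, 11.4 and 12.2 TPM in control libraries. Library 3 of the labelled group stood above all others and control library 3 below all others. The log2 fold change was -0.04 (SE 0.27, 95% interval -0.62 to 0.55, adjusted p = 0.98 in edgeR), with a sign that also turned under those scalings (0.03 and 0.02). The interval is the widest among the 3 hepatocyte factors, and Foxa2 rested on 157 to 549 estimated counts a library.

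The 19 other hepatocyte factors in the list gave no call in edgeR or DESeq2 (2 at an unadjusted p under 0.05), with 11 fold changes negative and 8 positive (9 and 10 negative when scaled by library totals alone and by upper quartile) and a median log2 fold change of -0.07. Cebpb, the most abundant, averaged 160 TPM in libraries labelled Alk1-HEC-KO and 175 TPM in control libraries (log2 fold change -0.29, adjusted p = 0.76 in edgeR). Onecut2, a homeobox factor related to HNF6, had -0.39 (adjusted p = 0.29), and in log2 CPM its groups did not overlap. Foxa1, the sister gene of Foxa2, had -0.52 (adjusted p = 0.58), and the TPM ratio of Foxa1 to Foxa2 averaged 0.320 ± 0.055 in libraries labelled Alk1-HEC-KO and 0.495 ± 0.119 in control libraries (SD, n = 5 each), with overlapping ranges.

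The products of the hepatocyte programme gave no call in edgeR. Among 18 tested hepatocyte secreted and enzyme genes, 13 fold changes were positive and 5 negative, with a median log2 fold change of 0.09 (15 positive with library totals alone). Alb had -0.06 (adjusted p = 0.95 in edgeR), and the fibrinogen chain gene Fgb had 0.43 (adjusted p = 0.78). Of 12 fetal and progenitor genes 6 were tested and none was called, with 4 positive and 2 negative fold changes: Spp1 had 0.09 (adjusted p = 0.96), Sox9, the duct and progenitor factor, 1.16 (adjusted p = 0.19), and Sox4 1.08 (adjusted p = 0.40). At an unadjusted p under 0.05 stood 0 of the hepatocyte genes and 2 of the progenitor genes, and DESeq2 called 0 and 1 of them. In the periportal list, all 14 genes were tested and none was called by edgeR or DESeq2 (1 at an unadjusted p under 0.05), with 10 fold changes positive (13 and 12 when scaled by library totals alone and by upper quartile); Ass1, a urea cycle enzyme, had -0.02 (adjusted p = 0.98), Hal 0.38 (adjusted p = 0.53) and Asl 0.32 (adjusted p = 0.61).

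Other nuclear receptors and the coregulators they use gave no call in 16 and 11 tested genes by edgeR or DESeq2 (3 and 0 at an unadjusted p under 0.05). The nuclear receptors split into 9 positive and 7 negative fold changes (12 and 4 with library totals alone). Nr1h3, the oxysterol receptor LXRα, had a log2 fold change of 0.11 (adjusted p = 0.82 in edgeR), Ppard 0.44 (adjusted p = 0.48), and Pparg, the adipogenic PPAR, -1.22 (adjusted p = 0.36). Pparg averaged 1.83 TPM in libraries labelled Alk1-HEC-KO and 4.01 TPM in control libraries. Of the coregulators, 9 had negative fold changes (6 with library totals alone), and Ncor1, Ep300 and Crebbp had -0.05, -0.29 and -0.22 in log2 fold change with adjusted p of 0.92, 0.70 and 0.75. The clock list also gave no call in 14 tested genes by edgeR or DESeq2 (1 at an unadjusted p under 0.05), 12 of them with negative fold changes under each scaling, among which Dbp had -0.29 (adjusted p = 0.84), Bhlhe41 -0.73 (adjusted p = 0.27) and Per2 -0.85 (adjusted p = 0.59).

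**Figure D3:**
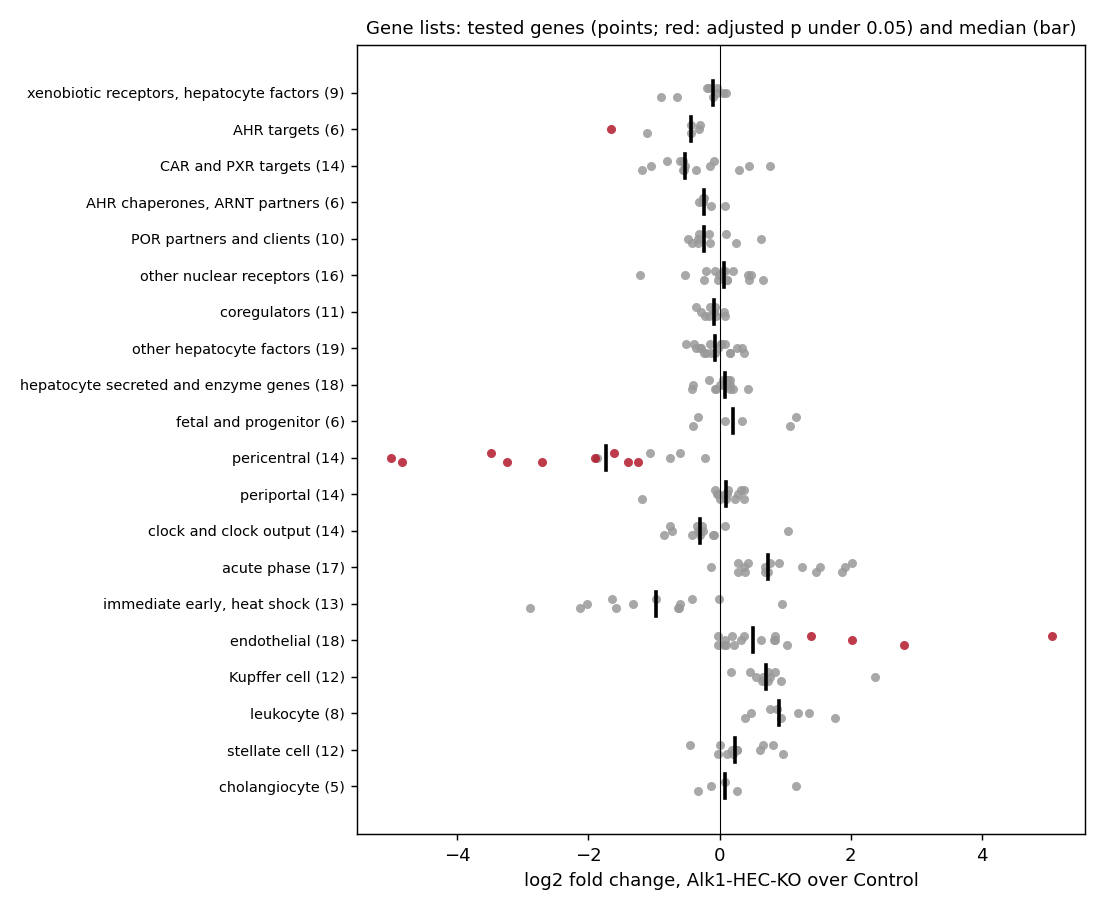
Log2 fold change of Alk1-HEC-KO over Control for every tested gene of each list (points, with those at an edgeR adjusted p under 0.05 in red), the list's median (bar) and its number of tested genes in brackets. The 9 receptors and hepatocyte factors have a median of -0.09 and no red point, AHR targets have 1, pericentral genes have 9 to the left and endothelial genes 4 to the right.

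As a set, 0 of the 9 genes were called against 0.357% of all tested genes, 2 of 9 had an unadjusted p under 0.05, both lower, against 8.44% of tested genes in either direction and 3.42% lower, and 0 of 9 had groups without overlap against 1.68%. DESeq2 and limma-voom also called 0 of 9, against 1.18% and 0.311% of the genes they tested. The fold change was negative for 7 of the 9, but for 5 when counts were scaled by library totals alone or by upper quartile. The median log2 fold change of the 9 was -0.09, against 0.0022 for all tested genes. At 9 genes these counts allow no statement about the set beyond its members.

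Single libraries weighed on TPM levels. Library 5 labelled Alk1-HEC-KO was the lowest of its group in TPM for 8 of the 9 genes, and control library 3 the lowest control for 7 of 9. In log2 CPM after TMM scaling, whose factors were 0.892 and 0.869 for these libraries, they were lowest for 3 and 4 of the 9. Mitochondrial transcripts made up 12.01% of counts in that labelled library and 16.60% in control library 3, the highest in each group, where the others ran from 7.59 to 9.72% in libraries labelled Alk1-HEC-KO and from 5.82 to 12.77% in control libraries. The acute phase list summed to 65196 TPM in library 5 labelled Alk1-HEC-KO, the most of all 10, and to 9321 TPM in control library 3; its part in the low levels was not tested.

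**Figure D4:**
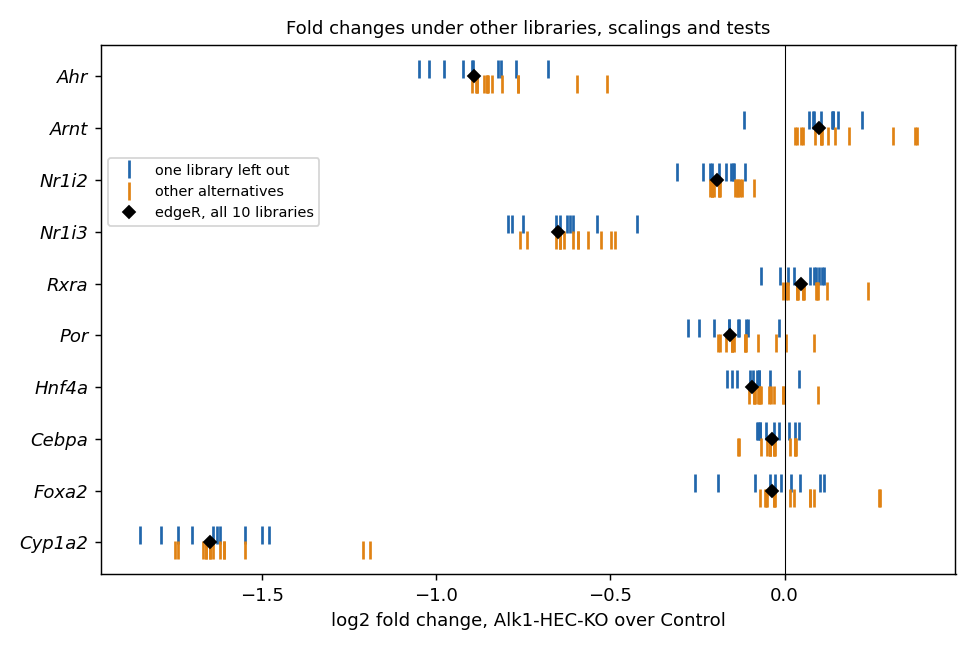
Log2 fold changes of Alk1-HEC-KO over Control for the 9 genes and Cyp1a2 with all 10 libraries in edgeR (diamonds), with 1 library left out at a time (blue ticks) and under 14 other settings (orange ticks). Ahr stays between -1.05 and -0.51 and Nr1i3 between -0.79 and -0.42, Nr1i2 and Cyp1a2 also keep their sign, and the other 6 genes lie on both sides of 0.

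Over all tested genes, 0.186% were called higher by edgeR. Among markers of cells other than hepatocytes, only the endothelial list held genes called by edgeR. Of its 18 genes, 4 were called, all higher (2 without the libraries with high Saa1, 2 without those with high Fos and 1 with the run covariate): Ly6c1 (log2 fold change 5.07), Emcn (2.02), Cldn5 (1.40) and Cd34 (2.80); Tie1 and Pecam1 had 0.84 and 1.02 (adjusted p = 0.15 and 0.26 in edgeR) and Clec4g, the most abundant, -0.02 (adjusted p = 0.99). The endothelial list summed to 110 to 216 TPM in libraries labelled Alk1-HEC-KO and to 72.2 to 131 TPM in control libraries. All 12 Kupffer cell and all 8 tested leukocyte genes had positive fold changes and none was called by edgeR, with 9 and 3 at an unadjusted p under 0.05. DESeq2 called 3 Kupffer cell genes and 0 leukocyte genes, limma-voom 0 of both, and 3 Kupffer cell genes passed without the filter on low counts, 1 with limma on log2(TPM + 1) and 1 with limma on log2(TPM + 0.1). The lists had sums of 238 to 444 and 85.4 to 224 TPM in libraries labelled Alk1-HEC-KO and of 152 to 241 and 69.9 to 95.7 TPM in control libraries. Among Kupffer cell genes C1qa, Marco and Vsig4 had 0.66, 2.37 and 0.77 (adjusted p = 0.51, 0.097 and 0.17), and among leukocyte genes Cd74, Cd79a and Itgam had 0.38, 1.36 and 1.19 (adjusted p = 0.74, 0.27 and 0.29). The stellate list (12 tested, 0 called by edgeR, 10 positive, or 11 with library totals alone or upper quartile) summed to 85.8 to 270 TPM in libraries labelled Alk1-HEC-KO and 116 to 183 TPM in control libraries, where Ecm1, Rgs5 and Reln had 0.0008, 0.81 and -0.46 (adjusted p = 1.0, 0.28 and 0.70). The cholangiocyte list (5 tested, 0 called by edgeR, 1 by DESeq2, 3 positive), which shares Sox9 and Spp1 with the progenitor list, summed to 20.6 to 59.3 TPM in libraries labelled Alk1-HEC-KO and 21.7 to 35.0 TPM in control libraries. Of 17 acute phase genes none was called by edgeR or DESeq2 (0 at an unadjusted p under 0.05), 16 had positive fold changes, and the sum was 10713 to 65196 TPM in libraries labelled Alk1-HEC-KO and 8962 to 47354 TPM in control libraries. Hpx, Socs3 and Orm3 had 0.74, 0.76 and 1.46 (adjusted p = 0.75, 0.64 and 0.69). How far these other cells take part in the values of the 9 genes was not tested.

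For each gene the 2 most alike in pattern over the 10 libraries were taken, by Pearson's r of log2 CPM among 11804 genes. These genes share the libraries' depth and quality, and the libraries include both groups. The highest r of so many genes over 10 libraries is high by that choice alone, and no level for unrelated genes was computed. The values are a description and show no link between genes, and a shared order of libraries follows from the same choice. Ahr varied most like Dusp6, a phosphatase that switches off ERK (r = 0.982), and Ric8b (0.944). Dusp6 was at 16.1, 12.1, 8.23, 10.5 and 4.6 TPM in the libraries labelled Alk1-HEC-KO and at 41.7, 48.3, 17.1, 17.1 and 12.6 TPM in control libraries, with the highest values in control libraries 1 and 2, as for Ahr (log2 fold change -1.55, adjusted p = 0.26 in edgeR). Nr1i3 came closest to Galk1 (0.928) and Mat2a (0.917), Nr1i2 to Syncrip (0.94) and Gtf2e2 (0.931), and Rxra to Hnrnpm (0.961) and Skiv2l (0.94). For Arnt the nearest were Etl4 (0.966) and Nek8 (0.917), and for Por they were Ddx20 (0.931) and Anxa6 (0.923). Hnf4a was nearest to Rcc2 (0.953) and Dhx8 (0.943), Cebpa to Dexi (0.894) and Amz2 (0.881), and Foxa2 to Fer (0.919) and Dtnb (0.887).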

How the data were processed

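RNA from whole mouse liver was read on a BGISeq-500 sequencer, 5 libraries a group. The build GRCm38.p6 and the tools kallisto 0.4.6 and Trim Galore 0.6.4 are named in the submitters' processing notes; gene summarisation and strand are not given in the sources used here. Estimated counts and TPM (transcript abundance per length) per gene were deposited by the authors for each library. Estimated counts were rounded, filtered (filterByExpr), scaled by TMM and tested with edgeR 4.0.16 in R 4.3.3 (robust quasi-likelihood fit, group as the only term), with Benjamini-Hochberg adjustment. Standard errors came from the quasi-likelihood F. A gene annotation of GRCm38 gave symbols and coordinates for 55144 of 55385 IDs; IDs without a symbol held at most 0.013% of a library's counts.

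The 9 genes and the gene lists were chosen with earlier results of these data known. Among receptor targets, Cyp1a1, Cyp2b10 and Abcb1a were named outside the rule that follows. Named genes are the 9 genes, AHR and CAR or PXR targets with a group mean of at least 1 TPM, from each other list the called genes, the most abundant and up to 2 more with the smallest adjusted p, and the 2 genes most like each of the 9, without predicted Gm and Rik genes; some genes under this rule are not reported here. Alternatives were other scalings, filters and thresholds, DESeq2 1.42.0, limma-voom (limma 3.58.1), limma on log2(TPM + 1) and log2(TPM + 0.1), a replicate block, the file-name run and each library left out; 3 reductions by Saa1, Fos and run were added after the data were seen. The fits were tested on simulated data with 5 libraries a group. Of genes changed 1.5, 2, 4 and 8 times, 14%, 64%, 90% and 88% were called in turn. Replicate pairs differed by more than counting noise.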

Additional observations from a re-analysis of the deposited data

Results flagged for a closer look

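In groups of 5 libraries, 4 of 54 groups examined held a library whose gap to its nearest neighbour exceeded the 95% critical value of Dixon's test, which chance gives in about 5% of groups; none concerned the 9 genes. Library 2 labelled Alk1-HEC-KO held 7.62 TPM of Gadd45b, with the next at 2.32 TPM. Tiparp was far below the rest in library 5 labelled Alk1-HEC-KO, at 0.498 TPM with the next at 1.13 TPM, and far above them in control library 2, at 2.53 TPM with the next at 1.3 TPM. Control library 4 held 95.2 TPM of Cyp3a13, with the next at 42.9 TPM.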

How the results depend on the processing

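None of the 9 genes was called under any alternative, and for Ahr the adjusted p was at least 0.076 (DESeq2). The count of all called genes was 46, and 33 to 83 with 1 library left out. It was 119 without the filter on low counts, 152 in DESeq2, 5 with the file-name run as covariate, 30 without the libraries with high Saa1, 17 without those with high Fos and 18 without the third run. In the gene lists together, 14 of 229 tested genes were called, beside 0.357% of all tested genes. The count in the lists was 25 in DESeq2, 3 with the run covariate, 8 without high Saa1, 6 without high Fos and 8 without the third run. AHR targets had 1 call (0 or 1 with 1 library left out) and 0 without the filter, with the run covariate and in each of those 3 reductions. CAR and PXR targets had 0 (0 or 1 with 1 library left out) and 1 without the filter, in DESeq2 and at an adjusted p under 0.1. The cause of these shifts was not tested.

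Signs turned among fold changes that had not passed. With 1 library left out, log2 fold changes ran from -0.12 to 0.22 for Arnt, -0.0666 to 0.11 for Rxra, -0.16 to 0.0409 for Hnf4a, -0.0785 to 0.0404 for Cebpa and -0.26 to 0.11 for Foxa2. Without the third run they were -0.0044 for Rxra, 0.0043 for Por and 0.27 for Foxa2, and without high Saa1 they were 0.0841 for Por and 0.0718 for Foxa2. Hnf4a was at 0.0947 without high Fos. With library totals, upper quartile, log2(TPM + 1) and log2(TPM + 0.1), Cebpa was at 0.0327, 0.016, 0.0305 and 0.0306 and Foxa2 at 0.0257, 0.0158, 0.0741 and 0.0833, and the run covariate gave 0.27 for Foxa2.

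Whether replicate numbers pair the libraries is not given in the labels. The same-number correlations of deviations from the group means were 0.276, 0.0838, -0.0997, -0.0375 and 0.108. Those of unlike numbers ran from -0.365 to 0.248. These values cannot settle the question, since a pairing need not show in such correlations. With the replicate block 40 genes were called, 0 of the 9 genes and 0 AHR targets (Cyp1a2 at an adjusted p of 0.053). Ahr, Arnt and Foxa2 had the fewest counts of the 9 genes, with 148 to 743, 194 to 557 and 157 to 549 a library in turn. Arnt had an SE of 0.20, as had Por, at 4221 to 10743 counts a library. How far depth bears on the precision of these genes was not tested.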
